A study of Mus musculus with 8 samples.

Results

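A set of 10 genes of the Krüppel-like factor (KLF) family other than Klf2 was measured in mouse pro-B leukaemia cells that overexpressed Klf2: Klf3, Klf4, Klf6, Klf7, Klf8, Klf9, Klf10, Klf11, Klf12 and Klf13. They were taken by symbol, as 10 of the 38918 gene rows of a poly(A) RNA sequencing table. At a floor of 1 CPM, the usual scaling of a gene's reads to the total exon reads, in either library, 9 of the 10 were measured, as were 10850 genes of the whole table. The cells were BMiFLT3 (15-3), a line of pro-B cells from a murine B-cell precursor acute lymphoblastic leukaemia (BCP-ALL). Cells of one group had been infected with a retroviral construct for BFP, a blue fluorescent protein that serves as the control, and cells of the other with a retroviral construct for Klf2. Sample descriptions of both groups carry the name BFP, so both constructs may carry it. The labels give no time after infection, no number of clones or cultures, and no sort of infected cells. In RNA from a bulk culture, fewer expressing cells and less RNA per cell cannot be told apart. The design asks which genes respond to Klf2.

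KLF proteins are transcription factors with zinc fingers at the C-terminal end that bind CACCC boxes and related GC-rich elements, so members of the family can act on the same sites. What differs between members is mainly the N-terminal part, which recruits coactivators in some and corepressors in others. Klf2, Klf4, Klf6 and Klf7 are grouped as activators, Klf3, Klf8 and Klf12 bind the corepressor CtBP, and Klf9, Klf10, Klf11 and Klf13 bind the corepressor Sin3. In lymphocytes Klf2 and Klf4 are best known for holding cells in quiescence.

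Each group was deposited as 4 sequencing lanes, 8 samples in all. Lanes of a group differed by about sampling noise over all genes, so they were summed and counted as 1 library, with 30133978 exon reads for BFP and 30835450 for Klf2. With 1 library per group nothing here has a replicate check, and there are no p-values. Ratios divide the Klf2 library by the BFP library, from CPM scaled with TMM (trimmed mean of M values, a scaling between libraries), and differences in log2 use log2(CPM + 1). The range after a ratio is an exact 95% interval that covers counting error only, not variation between cultures or preparations. The protocols list 2 library kits and do not tie either to a library, so kit and construct cannot be told apart. Of 12 pro-B markers, 11 were in the table and 8 reached the floor, with a sum of 3075 CPM in BFP and 3411 in Klf2. The pro-B markers Rag1, Rag2 and Dntt had at most 9 reads in either library. None of 6 T-cell, 6 erythroid or 5 stromal markers reached the floor, and 1 of 8 myeloid (Csf1r, 117 and 70 reads) and 1 of 5 endothelial markers (Pecam1, 45.1 and 58.4 CPM) did. None of these markers passed the 2-fold rule used below.

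Klf2 itself, the check of the construct, had 88, 82, 73 and 71 exon reads in the 4 BFP lanes and 842, 816, 852 and 854 in the 4 Klf2 lanes. All Klf2 lanes were far above all BFP lanes. Its ratio was 11.1 (9.93 to 12.6), and reads across exon junctions went from 23 to 694, or from 7.32% to 20.6% of its exon reads. Reads of the gene outside its exons were 35 in BFP and 17 in Klf2. Exon reads of the construct and of the cells' own Klf2 gene cannot be told apart.

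Most of the other KLF genes were lower in the Klf2 library. Klf3, Klf6 and Klf8 were at least 2-fold lower with an interval below 1, and none was at least 2-fold higher. By the same rule 5.67% of all 10850 genes were lower and 2.45% higher. At 1.5-fold, 8 of the 10 genes were lower, against 13.9% of all genes, and 1 was higher, Klf10, against 10.2% of all genes. The interval lay below 1 for 8 genes and above 1 for 1. At this depth the shares over all genes were 37.3% and 37.1%. The median log2 difference was -0.71 over the 10 genes and -0.76 over the 9 above the floor. Over all genes measured the median was -0.01, with quartiles of -0.31 and 0.29.

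**Figure D1:**
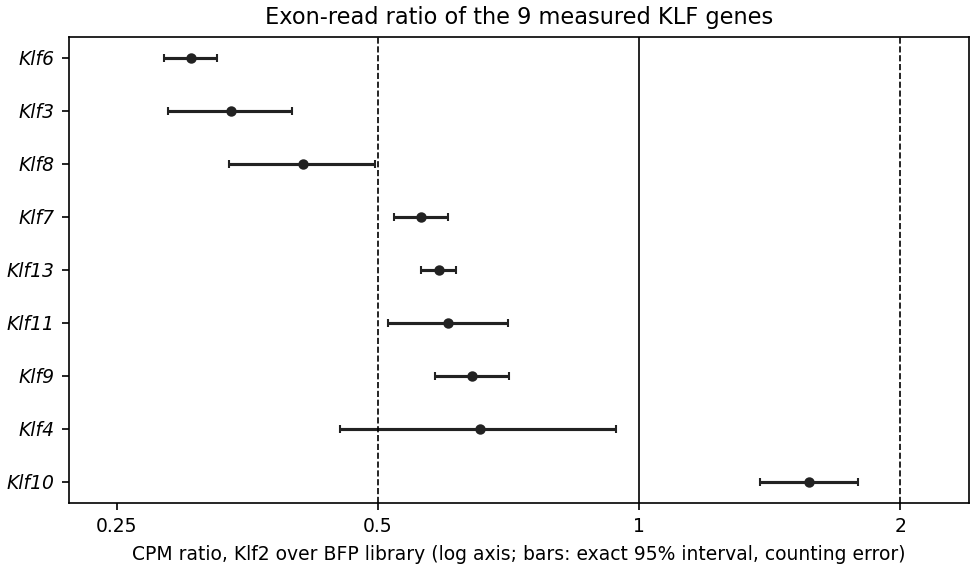
Exon-read ratio of the 9 measured KLF genes, Klf2 library over BFP library, on a log axis with exact 95% intervals of counting error. Klf6, Klf3 and Klf8 lie below 0.5, Klf10 alone lies above 1 at 1.57, and the other 5 lie between 0.561 and 0.655.

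The promoters of 4 of the lower genes are shown because the family's own binding motif is the sequence feature most relevant to them: the 3 genes past 2-fold, and Klf13, whose exon reads and reads outside exons differed in opposite directions. Sequences are from RefSeq (GRCm38.p6, the assembly also called mm10), 5′ to 3′ on the gene's strand, within the 250 bases before an annotated start and without bases of the gene's own annotated exons. Capitals mark CACCC or its complement GGGTG. Klf8 begins at base 153237466 of chromosome X, so both of its stretches lie inside the gene's bounds. They precede a RefSeq start but not the first annotated base of Klf8.
Klf3 promoter, chr5:64803271-64803387 (+): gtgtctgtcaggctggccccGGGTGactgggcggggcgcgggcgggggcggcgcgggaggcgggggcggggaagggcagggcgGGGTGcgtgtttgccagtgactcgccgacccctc
Klf6 promoter, chr13:5861239-5861481 (+): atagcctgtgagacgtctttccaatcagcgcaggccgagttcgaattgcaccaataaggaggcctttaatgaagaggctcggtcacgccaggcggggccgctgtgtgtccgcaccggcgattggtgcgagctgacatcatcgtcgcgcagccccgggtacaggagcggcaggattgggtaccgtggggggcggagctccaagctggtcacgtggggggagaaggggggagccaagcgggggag
Klf8 promoter, first start, chrX:153237512-153237747 (+): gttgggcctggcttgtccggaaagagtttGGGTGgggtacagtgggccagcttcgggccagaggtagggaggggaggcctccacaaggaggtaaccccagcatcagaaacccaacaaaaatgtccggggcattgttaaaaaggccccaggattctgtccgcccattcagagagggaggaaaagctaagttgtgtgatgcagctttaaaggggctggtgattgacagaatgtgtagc
Klf8 promoter, second start, chrX:153359363-153359612 (+): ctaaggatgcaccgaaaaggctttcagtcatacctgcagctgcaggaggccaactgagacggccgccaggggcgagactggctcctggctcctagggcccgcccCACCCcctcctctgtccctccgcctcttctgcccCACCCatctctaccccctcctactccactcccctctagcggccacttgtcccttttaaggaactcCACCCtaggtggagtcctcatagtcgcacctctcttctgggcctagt
Klf13 promoter, chr7:63938916-63939165 (-): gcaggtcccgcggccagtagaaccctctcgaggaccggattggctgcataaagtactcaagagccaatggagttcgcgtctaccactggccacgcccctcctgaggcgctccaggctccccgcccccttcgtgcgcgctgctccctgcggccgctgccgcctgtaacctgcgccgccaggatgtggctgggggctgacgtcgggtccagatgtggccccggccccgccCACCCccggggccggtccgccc
Klf3, the gene of a CtBP-binding repressor, had 5 CACCC boxes in its full 250 bases, the most of any of the windows, and 2 in the run shown. Klf6 had no CACCC box, and other motifs of its window are given below.

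Windows were found for 9 of the 10 genes, with 2 for Klf8, which gives 10 windows. Klf10, the only one of the 10 higher in exon reads, had no window, so motifs could not be compared between higher and lower genes. CACCC on either strand was in 7 of the 10, against 52.0% of all 32851 windows of the same length. The Klf7 window had 3 copies, the second Klf8 window 3, and the Klf9, Klf12, Klf13 and first Klf8 windows 1 each. Klf4, Klf6 and Klf11 had none. GGGCGG, the GC box, on either strand was in 8 of 10 windows against 32.7% of all. CCNCNCCC, a looser form that can overlap both others, was in 9 of 10 against 45.9%. These GC-rich motifs stand beside a median GC content of 63.4% in these windows and 52.4% in all windows. The windows without CACCC held both other motifs: 4 GGGCGG and 9 CCNCNCCC for Klf4, 1 and 2 for Klf6, and 4 and 5 for Klf11. The Klf9 window held CACCC alone. A match of letters is not a measured site, and binding was not tested.

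Of the activators, Klf6 was the lowest by ratio among the 10 genes. Klf6, a broadly expressed activator described as a tumour suppressor, lies at chromosome 13 from 5861489 to 5870393 in mm10 coordinates, with 4 exons over 4217 exon bases. It had 917, 877, 834 and 887 exon reads in the BFP lanes and 262, 278, 245 and 242 in the Klf2 lanes. No Klf2 lane came near a BFP lane. The summed reads were 3515 and 1027, or 113 and 34.4 CPM, a ratio of 0.304 (0.283 to 0.326) and a log2 difference of -1.69. In the authors' deposited table the signed fold of Klf6, from mean RPKM (reads per exon length and lane total), is -3.50, where a minus sign marks a gene lower in Klf2.

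Klf7, an activator known from neuronal development and linked to leukaemia outcome, was also lower, by less. The gene lies on chromosome 1, 64029447 to 64122282, with 12 exons over 7745 exon bases. Its exon reads were 554, 530, 541 and 545 in the BFP lanes and 311, 290, 277 and 292 in the Klf2 lanes, and the lanes of the libraries did not overlap. The ratio was 0.561 (0.522 to 0.603), from 69.8 to 39.2 CPM. Klf7 is the member whose reads were mostly shared with other places: the uniquely placed share of its exon reads was 40.5% in BFP and 44.0% in Klf2, while for the other 8 measured genes it was at least 99.8%. On uniquely placed exon reads, 878 and 515, its ratio was 0.612 (0.548 to 0.683).

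Klf4, the activator closest to Klf2 in sequence and function, was measured on few reads. The gene lies on chromosome 4, 55527143 to 55532466, with 9 exons over 3049 exon bases. Its exon reads were 16, 16, 25 and 24 in the BFP lanes and 16, 18, 6 and 11 in the Klf2 lanes. Lanes of the libraries overlapped, and the low ones were lanes 3 and 4 of the Klf2 library. The sums of 81 and 51 reads gave 2.60 and 1.71 CPM and a ratio of 0.655 (0.452 to 0.941). Without lane 3 of both libraries the ratio was 0.836 (0.552 to 1.26), and without lane 4 it was 0.729 (0.474 to 1.11), so that both intervals then held 1.

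**Figure D2:**
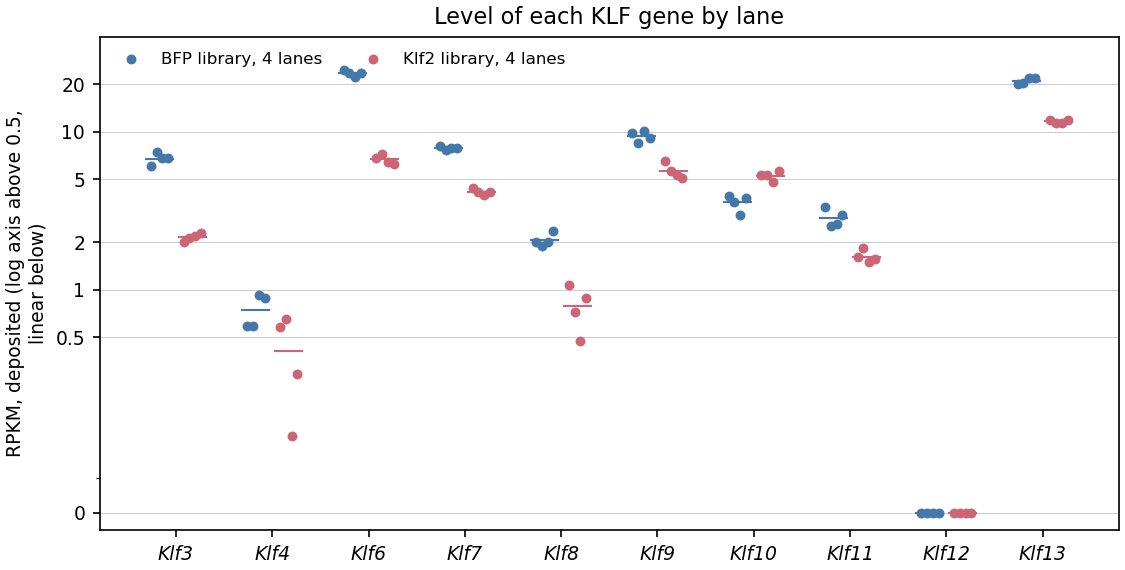
Deposited RPKM of each of the 10 genes in the 4 BFP lanes and the 4 Klf2 lanes, on an axis that is logarithmic above 0.5 and linear below. Lanes of the libraries are apart for every gene at or above 1 CPM other than Klf4, with the Klf2 lanes higher for Klf10 and lower for the other 7, and Klf12 is listed at 0 in every lane.

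Of the genes of CtBP-binding repressors, 2 of 3 were at least 2-fold lower, beside 5.67% of all measured genes, and the other had no exon read. Klf3, a repressor that restrains some targets of activating KLF factors and has a role in B-cell development, lies on chromosome 5, 64803523 to 64830129, with 9 exons over 2479 exon bases. It had 133, 164, 149 and 151 exon reads in the BFP lanes and 45, 48, 49 and 52 in the Klf2 lanes. The lowest BFP lane was above every Klf2 lane. The sums were 597 and 194, or 19.2 and 6.49 CPM, a ratio of 0.338 (0.286 to 0.398) and a log2 difference of -1.43.

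Klf8, a repressor described in epithelial cells and tumours, lies on chromosome X, 153237466 to 153396132, with 14 exons over 5206 exon bases. It had 92, 87, 93 and 109 exon reads in the BFP lanes and 51, 34, 23 and 42 in the Klf2 lanes. The libraries did not overlap, but the Klf2 lanes were further apart than sampling noise gives for most genes, with a chi-square of 3.72 per degree of freedom. The ratio was 0.410 (0.337 to 0.496), from 381 to 150 reads and from 12.3 to 5.02 CPM. When all reads of the gene were counted, introns included, the ratio was 0.579 (0.498 to 0.672), and Klf8 no longer passed the 2-fold rule.

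Klf12, whose product was first described as a repressor of the AP-2alpha gene, had 0 exon reads in all 8 lanes. At these depths that allows up to 0.0996 CPM in BFP and 0.0973 in Klf2, taking 3 reads as the limit of a count of 0. The gene, on chromosome 14 from 99874486 to 100149764, had 7 reads outside its exons in BFP and 1 in Klf2. No ratio was computed for it.

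Of the genes of Sin3-binding factors among the 10, 3 were lower and 1, Klf10, was higher by interval. Over all measured genes the interval lay below 1 for 37.3% and above 1 for 37.1%. Klf13, which activates the chemokine gene Ccl5 in T cells, had the most exon reads of the 10 genes. It lies on chromosome 7, 63886347 to 63938915, with 6 exons over 6673 exon bases. Its exon reads were 1194, 1200, 1300 and 1310 in the BFP lanes and 722, 687, 690 and 726 in the Klf2 lanes. The libraries were well apart, although the BFP lanes differed beyond sampling noise (chi-square of 2.78 per degree of freedom). The ratio was 0.587 (0.561 to 0.615), from 161 to 94.5 CPM.

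Klf9, a hormone-responsive member (chromosome 19, 23141226 to 23166911, 2 exons over 3263 exon bases), had 282, 245, 293 and 268 exon reads in the BFP lanes and 195, 166, 158 and 152 in the Klf2 lanes. Its lanes did not overlap, with a ratio of 0.642 (0.582 to 0.707), from 35.0 to 22.5 CPM. Klf11 (chromosome 12, 24651371 to 24662774, 9 exons over 4228 exon bases), a TGF-beta-inducible gene, had 125, 95, 98 and 112 exon reads in the BFP lanes and 62, 70, 57 and 60 in the Klf2 lanes. It too was lower in every Klf2 lane than in any BFP lane, with a ratio of 0.603 (0.513 to 0.706), from 13.8 to 8.33 CPM.

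Klf10, the other TGF-beta-inducible early gene of the family, was the only member higher in the Klf2 library by exon reads. The gene lies on chromosome 15, 38294413 to 38300707, with 4 exons over 3045 exon bases. It had 106, 97, 80 and 104 exon reads in the BFP lanes and 148, 148, 132 and 156 in the Klf2 lanes. Every Klf2 lane was above every BFP lane. The sums were 387 and 584, or 12.4 and 19.5 CPM, a ratio of 1.57 (1.38 to 1.79) and a log2 difference of 0.61. Klf10 and Klf11 share the TGF-beta response and Sin3 binding. In exon reads they lay on opposite sides of 1, with intervals that did not overlap. In reads across exon junctions both had a ratio of 1.02, with intervals that held 1 (0.657 to 1.59 and 0.381 to 2.73).

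By lanes, every Klf2 lane was below every BFP lane for 7 genes and above for 1. Over all measured genes 34.6% had all Klf2 lanes below and 28.3% all above. Lanes repeat the sequencing of 1 library, so lanes that do not overlap show counting precision and not a difference between cultures.

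Levels between genes were compared per length, as CPM of exon reads, without TMM, per kilobase of exon. In BFP the order was Klf6 at 27.7, Klf13 at 24.9, Klf9 at 11.1, Klf7 at 9.30, Klf3 at 7.99, Klf10 at 4.22, Klf11 at 3.38, Klf8 at 2.43, Klf4 at 0.882 and Klf12 at 0. No neighbours in this order had overlapping exact 95% intervals. In Klf2 the order was Klf13 at 13.7, Klf6 at 7.90, Klf9 at 6.67, Klf10 at 6.22, Klf7 at 4.90, Klf3 at 2.54, Klf11 at 1.91, Klf8 at 0.934, Klf4 at 0.542 and Klf12 at 0. The intervals of Klf9 and Klf10 overlapped there, and those of the other neighbours did not. Klf6 and Klf13 thus changed places at the top. Klf10 moved up past Klf3 and, with all exon reads counted, past Klf7. For Klf7, however, 878 of 2170 BFP exon reads had a unique place, and 515 of 1170 Klf2 exon reads. No order was made on such reads alone, so the rank of Klf7 against its neighbours, Klf10 included, is uncertain.

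The per-length level summed over the 10 genes was 91.8 in BFP and 45.3 in Klf2, a ratio of 0.494. Klf2 itself was at 5.64 in BFP, between Klf3 and Klf10, and at 59.1 in Klf2, above all 10 genes together. With Klf2 included the sums were 97.4 and 104.4, a ratio of 1.07. Klf2 made up 5.79% of that sum in BFP and 56.6% in its own library. Within the 10 genes, the share of Klf6 was 30.1% in BFP and 17.4% in Klf2, and that of Klf13 was 27.1% and 30.3%.

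The ratio of a gene moved with its expression level over the whole table, so the genes were also set beside genes of like level. With the measured genes cut into 5 equal groups on their mean CPM, the log2 ratio had a median of -0.20 for the least and 0.17 for the most expressed group. Klf3 and Klf8, with Klf10 and Klf11, were in the second group, where the median was -0.13 and 6.36% passed as at least 2-fold lower. Klf6, with Klf7, was in the fourth group, where 1.94% were at least 2-fold lower and the median was 0.06. Klf13 was in the highest group, where the share was 1.20%, Klf9 in the third (2.76%) and Klf4 in the lowest (16.1%).

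Reads of a gene outside its exons come mostly from introns of unspliced RNA, and give a second readout from the same libraries. They made up 15.2% of all gene reads in BFP and 15.1% in Klf2. With at least 30 such reads over both libraries, 7 of the 10 genes and 9575 genes in all could be compared, and these 9575 had a median ratio of 0.993. The interval of reads outside exons lay below 1 for 3 of the 7, Klf3, Klf6 and Klf9, and above 1 for 1, Klf13. Over all 9575 genes these shares were 27.7% and 28.9%.

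Klf3 and Klf6 were lower by both readouts. Klf3 had 53 reads outside exons in BFP and 9 in Klf2, a ratio of 0.177 (0.0766 to 0.361). Klf6 had 59 and 20, a ratio of 0.353 (0.201 to 0.594). Klf9 had 450 and 329, with a ratio of 0.761 (0.658 to 0.879), and its intervals by the 2 readouts overlapped.

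Klf7, Klf8, Klf11 and Klf13 were lower in exon reads and not in reads outside exons. Klf13 had 647 reads outside exons in BFP and 820 in Klf2, a ratio of 1.32 (1.19 to 1.46) beside 0.587 for its exon reads. On uniquely placed reads outside exons, 431 and 566, the ratio of Klf13 was 1.37 (1.20 to 1.55). Klf13 was thus on opposite sides of 1 by the 2 readouts, as were 3.57% of all 9575 genes in the same sense. Klf8 had 122 and 125 reads outside exons, a ratio of 1.07 (0.824 to 1.38), Klf7 205 and 235, a ratio of 1.19 (0.985 to 1.45), and Klf11 22 and 34, a ratio of 1.61 (0.914 to 2.89). For each of these 4 the interval of reads outside exons lay wholly above that of exon reads. Of the 3523 genes of the table with an exon interval below 1, 23.6% showed this, and their median ratio was 0.749 for exon reads and 0.792 outside exons.

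The share of a gene's reads that lay outside exons was 24.3% in BFP and 45.5% in Klf2 for Klf8, 11.4% and 22.5% for Klf13, 8.63% and 16.7% for Klf7, and 4.87% and 12.0% for Klf11. For Klf3 it was 8.15% and 4.43%, and for Klf6 1.65% and 1.91%. In the GENCODE M21 annotation, genes on the opposite strand overlap Klf3, Klf7, Klf12 and Klf13. Those opposite-strand genes with a row in the table had at most 12 reads in either library (Gm26649, inside Klf7). Gm27252, on the opposite strand inside Klf13, had no row, so its reads could not be seen apart from those of Klf13. C230096K16Rik, on the same strand inside Klf3, had no row either. The 53 and 9 reads of Klf3 outside exons may therefore include reads of C230096K16Rik. No source used here says whether strand was used in counting, and reads of overlapping genes cannot be told apart.

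**Figure D3:**
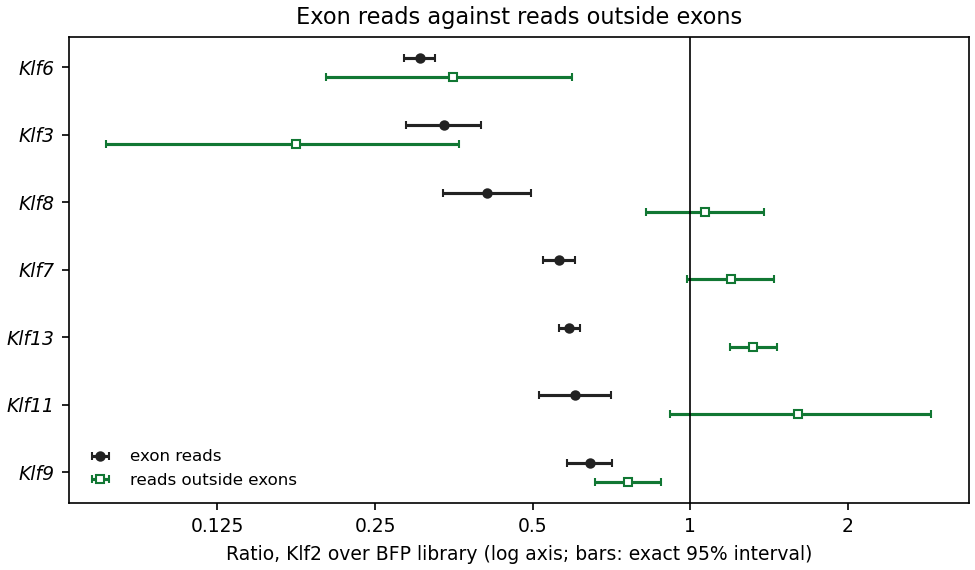
Ratio of exon reads (filled) and of reads outside exons (open) for the 7 KLF genes with at least 30 reads outside exons, on a log axis with exact 95% intervals. The 2 readouts lie together for Klf3, Klf6 and Klf9, and apart for Klf7, Klf8, Klf11 and Klf13, where the open symbols lie between 1.07 and 1.61.

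Reads across exon junctions, from spliced RNA, were few. Klf13 had 63 in BFP and 22 in Klf2, a ratio of 0.357 (0.209 to 0.587), lower than its exon ratio. Klf3 had 58 and 20, Klf6 95 and 21, and Klf8 27 and 6. Klf10 had 44 in each library, a ratio of 1.02 (0.657 to 1.59), so that its interval held 1. For Klf4, Klf9 and Klf11, with at most 20 junction reads in a library, the junction ratio was slightly above 1, with intervals that held 1 (Klf9, 1.13, 0.57 to 2.27).

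Other members of the KLF and SP families lay on both sides of 1. The counts for this list and those below stand beside 37.3% of all measured genes with an interval below 1 and 37.1% above. At least 2-fold lower were 5.67% of all genes, and higher 2.45%. Of 15 further KLF and SP genes, 6 were above the floor, with 2 intervals below 1 and 2 above 1. The median log2 difference was 0.08, which was -0.01 when scaled on total reads alone. The 2 above 1 were Klf16, with a ratio of 1.24 (1.12 to 1.37), and Sp1, with 1.06 (1.02 to 1.09). The 2 below 1 were Sp3, with 0.898 (0.861 to 0.936), and Sp9. Sp9 alone was at least 2-fold lower, with 41 reads and 10, a ratio of 0.254 (0.113 to 0.515), and 78.4% of its reads were uniquely placed. Corepressors and coactivators of the family had a median of 0.03, or -0.06 on total reads alone. Of 16 measured, 5 intervals lay below 1 and 7 above, and none passed 2-fold. Hdac2, a histone deacetylase of the Sin3 complex, was at 129 and 219 CPM (ratio 1.69, 1.63 to 1.76), and Crebbp, a histone acetyltransferase, at 136 and 87.1 CPM (ratio 0.639, 0.609 to 0.671).

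Regulators upstream of the family were mostly within 2-fold. The MEK5-ERK5-MEF2 cascade and FOXO factors are known to drive Klf2 and Klf4 expression. Of 11 measured genes of this list, 9 intervals lay below 1 and 1 above, against 37.3% and 37.1% of all genes. The 1 above was that of Mef2d, with a ratio of 1.35 (1.32 to 1.38). None passed 2-fold, and the median was -0.39. Mapk7, which encodes ERK5, was at 43.2 and 23.9 CPM, a ratio of 0.554 (0.505 to 0.607), and Foxo3 had a ratio of 0.631 (0.596 to 0.669). Of 11 TGF-beta pathway genes, 6 intervals lay below 1 and 2 above, with a median of -0.21. The 2 above were those of Tgfb1, with a ratio of 1.49 (1.44 to 1.55), and Smad2, with 1.09 (1.02 to 1.17). The medians describe the lists, and the activity of either pathway was not tested. Tgfbr2, the type 2 receptor, was the only one at least 2-fold lower, at 172 and 80.2 CPM, a ratio of 0.467 (0.445 to 0.490).

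Over all measured genes, 37.3% had an interval below 1 and 37.1% above. Of 6 genes for E3 ubiquitin ligases that act on KLF proteins, 4 intervals lay below 1 and 2 above, with a median of -0.18. The furthest were Siah1a, with a ratio of 0.557 (0.507 to 0.611) and 83.4% of reads uniquely placed, and Vhl, at 0.715 (0.633 to 0.807). Of 7 genes described as targets of single members, 4 were measured, 1 with an interval below 1 and 1 above, and the median was -0.11. Ccnb1, the cyclin B1 gene, had a ratio of 1.84 (1.74 to 1.93) with 53.5% of reads uniquely placed, and Cdkn1a, the cell cycle inhibitor p21 and a KLF target, a ratio of 0.790 (0.758 to 0.824). Lgals3, the galectin-3 gene and a described target of Klf3, was below the floor, with 30 reads in BFP and 1 in Klf2, a ratio of 0.0347 (0.00085 to 0.209). It was named after its values were seen.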

How the data were processed

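Poly(A) RNA of cells infected with retroviral constructs was, per the labels' protocols, sequenced on a HiSeq system. The submitters' processing notes name CASAVA 1.8.2 and the genome build mm10. Not given in the sources used here are aligner, counting program, annotation and use of strand. Per the file headers, the authors deposited counts of exon, uniquely placed exon, gene and junction reads for each lane. The deposited RPKM is scaled to each lane's summed gene reads and to exon length (largest difference on recomputing 0.0258). The deposited median coverage signal enters no result, and the authors' signed fold score is quoted once, for Klf6.

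Lanes of a group share a description and differ in a lane name. Their chi-square per degree of freedom was 1.29 (BFP) and 1.27 (Klf2) on all exon reads, and 1.03 in both on uniquely placed reads, under the limit of 1.5, so lanes were summed to 1 library per group. Lanes held 7506567 to 7588695 exon reads in BFP and 7682298 to 7741626 in Klf2. TMM factors from edgeR 4.0.16 (R 4.3.3) were 1.03 and 0.969, a shift of 0.09 on the log2 scale. A gene passed the rule at a CPM ratio of at least 2 either way, an exact (Clopper-Pearson) 95% interval excluding 1, conditional on the summed reads, and 1 CPM in either library. Reads outside exons are gene reads minus exon reads. Reads carry no molecular identifiers, so intervals and limits of a count of 0 cover counting error only.

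The members and lists were chosen with earlier results of these data known. All 10 members are named, and in each list the genes past the rule, or otherwise the 2 with the largest log2 difference. Also named are Sp3 and, in the KLF and SP, MEK5-ERK5-MEF2 and FOXO, and TGF-beta lists, the genes with an interval above 1. Alternatives were other scalings (DESeq2 1.42.0 size factors, total reads), kinds of reads, floors, pseudocounts, fold limits and each lane left out. Scripts were tested on simulated data.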

Additional observations from a re-analysis of the deposited data

Results flagged for a closer look

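Among the 18 groups of 4 lanes examined (9 measured genes in each library), 0 had a lane that stood apart from the other lanes.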

How the results depend on the processing

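Klf3, Klf6 and Klf8 were the genes at least 2-fold lower whichever lane was left out. With a fold limit of 1.5, 8 genes were lower and 1 higher, beside 1505 and 1112 of all genes. Counting all gene reads took the number at least 2-fold lower to 2, since Klf8 was then at 0.579, and junction reads took it to 4, since Klf13 was then at 0.357. Over all genes the number was 615, against 675 with all gene reads and 634 with junction reads. The median log2 difference of the 10 genes was -0.71, against -0.54 with all gene reads and -0.12 with junction reads. On junction reads 4 genes had an interval below 1 in place of 8, and over all genes 2532 in place of 4047. The ratios of Klf4, Klf9 and Klf11 were then 1.02, 1.13 and 1.02, on few reads. Klf10 was then at 1.02 (0.657 to 1.59) in place of 1.57, with an interval that held 1. Of 90 ratios of single genes under alternatives, 85 kept their direction and their side of the rule. Leaving out a lane gave 1 to 2 genes with an interval of reads outside exons above 1, and without lane 1 these were Klf7 and Klf13. List medians that changed sign were those of the other KLF and SP genes (-0.014 on total reads and -0.012 with RPKM), of corepressors and coactivators (-0.059 and -0.056), and of targets of single members (0.0039 on junction reads). The cause was not tested. Depth limits Klf4, Klf12 and all junction reads. No paired analysis was possible because the lanes of a group are 1 library, which leaves no test. For the same reason the edgeR fit over lanes, planned only for lanes that differed beyond sampling noise, was not run.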
